A study of Mus musculus with 8 samples.

Results

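Rab GTPases, together with the Rab27 effectors melanophilin and myosin Va, were followed in sorted microglia from mice with and without the TGFβ signal transducers *Smad2* and *Smad3*. The genes were chosen by name: every protein-coding gene called Rab with a number and, where present, a letter, plus *Mlph* (melanophilin) and *Myo5a* (myosin Va), with a count of 10 or more in no fewer than 4 of the 8 libraries. This gave 59 of the 55573 genes listed in the count table, made up of 57 Rab GTPases and the 2 effectors. The table lists 59 protein-coding Rab genes, and 2 of them, *Rab17* and *Rab9b*, lay below the count minimum, with no count in any mutant library. The 4 mutant mice were *Smad2/3* fl/fl;*Cx3cr1* Cre and 4 further mice served as controls, all at postnatal day 60, with 1 library per mouse. The labels call the controls wild-type littermates, whereas the Methods state that control animals generally carried Cre and a floxed allele, and that the lines were backcrossed to C57BL6/J. Cre expressed from *Cx3cr1* recombines in microglia and also in other macrophages of the brain and its borders, so the deletion is not restricted to microglia. For these mutants the Methods describe a Percoll gradient and sorting of tdTomato+ cells examined for CD45 and CD11b, proteins that other myeloid cells carry as well.

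Rab proteins cycle between a GDP-bound form held in the cytosol and a GTP-bound form on a membrane, and each marks a particular compartment of the secretory or endocytic pathway. Guanine nucleotide exchange factors (GEFs) switch a Rab on, GTPase-activating proteins (GAPs) switch it off, and effectors bind the GTP-bound form to carry, tether or dock vesicles. *Rab27a* docks secretory granules, exosome-forming bodies and lysosome-related organelles, and in pigment cells it holds melanosomes on actin through melanophilin, which in turn binds the motor myosin Va. Microglia take up debris, synapses and dying cells, and early endosome, phagosome and lysosome Rabs guide that cargo to degradation.

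The 250 bases before the RefSeq starts of *Mlph* and *Rab27a*, the members with the largest decreases, are printed here because both genes fell together, up to the first base that any annotated exon covers. All are on the plus strand of GRCm38.p6, written 5′ to 3′, with capitals marking the letters of 3 motifs searched on both strands: the SMAD box (CAGAC), the PU.1 core (GAGGAAGT) and the E-box (CACGTG), the last of which is read by the MITF and TFEB family of transcription factors. The first *Rab27a* window lies upstream of the annotated gene, and the second lies inside it.
*Mlph*, chr1:90914850-90915084: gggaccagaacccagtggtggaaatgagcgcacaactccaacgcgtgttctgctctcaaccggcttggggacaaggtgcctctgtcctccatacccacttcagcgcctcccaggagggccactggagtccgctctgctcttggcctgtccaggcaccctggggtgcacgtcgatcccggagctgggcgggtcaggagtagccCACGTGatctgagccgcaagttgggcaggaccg
*Rab27a*, first start, chr9:73044560-73044809: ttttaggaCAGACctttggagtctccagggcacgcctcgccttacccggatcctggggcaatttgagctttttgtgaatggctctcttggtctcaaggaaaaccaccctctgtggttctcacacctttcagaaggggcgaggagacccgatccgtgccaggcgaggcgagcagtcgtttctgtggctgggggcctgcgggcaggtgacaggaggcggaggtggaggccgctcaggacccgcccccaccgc
*Rab27a*, second start, chr9:73063898-73064147: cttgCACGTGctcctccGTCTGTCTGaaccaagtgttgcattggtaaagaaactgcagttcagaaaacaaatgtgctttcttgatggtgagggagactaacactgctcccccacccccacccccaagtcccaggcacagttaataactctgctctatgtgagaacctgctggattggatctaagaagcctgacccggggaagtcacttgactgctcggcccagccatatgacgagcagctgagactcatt
The *Mlph* window held 1 E-box, which begins 48 bases before the start, and no SMAD box. The first *Rab27a* window held 1 SMAD box and the second held an E-box and 2 SMAD boxes that overlap by a base on the complementary strand. Of the 59 members, 48 had an entry in the RefSeq promoter table, with 60 windows in all. A SMAD box was present in 24 of these 60 windows, against 42.2% of all 32851 promoters, an E-box in 6 of 60 against 6.02%, and the PU.1 core in 2 of 60 against 2.44%. A match of letters is a description of the window and not a bound site.

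The targeted genes were examined first. *Smad3* was at 39.5, 56.9, 49.0 and 49.2 CPM (counts scaled to a common library size with TMM factors) in controls 1 to 4 and at 15.1, 9.61, 35.1 and 17.5 CPM in mutants 1 to 4, a log2 fold change of -1.33 ± 0.36 (SE, edgeR adjusted p = 0.0429). That call was lost in 7 of the 8 fits that left out a mouse, all but the one without mutant 3, with adjusted p-values up to 0.110. *Smad2* lay between 62.7 and 92.4 CPM in controls and between 42.7 and 75.9 CPM in mutants, and these ranges overlapped (log2 fold change -0.34, 95% interval -0.84 to 0.15, adjusted p = 0.340). Counts over whole genes can include exons that Cre does not remove, so they do not measure how much of the floxed part was deleted. *Xist*, expressed from the inactive X chromosome of females, was at 99.5 CPM or more in every control library and at 0.562 CPM or less in every mutant library, and the Y-linked *Ddx3y* was at 0.224 CPM or less in controls and at 9.74 CPM or more in mutants. Sex and genotype therefore cannot be told apart in any comparison below, and 3 members, *Rab9*, *Rab33a* and *Rab39b*, lie on the X chromosome.

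Libraries held between 37649124 and 40932680 counts in controls and between 35639502 and 41946479 counts in mutants. Of 10 microglial markers, 7 were lower in mutants, with *P2ry12* at a log2 fold change of -4.84, and their sum was 32429 to 48752 CPM in controls and 9324 to 12381 CPM in mutants, while *C1qa*, *Aif1* and *Ptprc* made no call. Of 5 markers of border-associated macrophages, 4 were higher, and their summed level was 26.4 to 36.6 CPM in controls and 1565 to 2432 CPM in mutants. Markers of neurons, oligodendrocytes, and neutrophils and monocytes made no call, 2 of 6 lymphocyte markers were higher, 1 of 6 astrocyte markers (*Slc1a3*) and 1 of 5 endothelial and mural markers (*Pdgfrb*) lower. Neuron markers summed to 370 and 129 CPM in controls 1 and 2 and to 337 and 159 CPM in mutants 1 and 2, above the 38.3 to 109 CPM of the other libraries. Oligodendrocyte markers were also highest in control 1 and mutant 1, at 4503 and 3795 CPM, against 707 to 2118 CPM in the others. Melanocyte markers, whose cells are best known for *Mlph* and *Rab27a*, summed to at most 8.25 CPM. *Mlana*, *Tyr* and *Slc45a2* had no count in any library, and *Tyrp1* had 1 count, in control 3. *Dct* reached 6.35 CPM in mutant 4 and *Pmel* 4.86 CPM in mutant 1. Both made no call, with log2 fold changes of 0.74 and 2.61. The part of these markers in the results below was not tested. In bulk libraries, a change in the share of cells that express a gene and a change in its RNA per cell cannot be told apart.

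Of the 59 members, 12 differed between mutants and controls at an adjusted p-value under 0.05, against 12.3% of the 20153 genes tested. The 7 higher members were *Rab7b*, *Myo5a*, *Rab20*, *Rab29*, *Rab32*, *Rab34* and *Rab9*, where 4.36% of all genes were called higher. The 5 lower members were *Mlph*, *Rab27a*, *Rab35*, *Rab40c* and *Rab12*, where 7.97% of all genes were called lower. The log2 fold change was positive for 30 members and negative for 29, with a median of 0.02 against 0.01 over all genes tested. The values of mutants and controls did not overlap for 18 of the 59 members, against 22.1% of all genes. The 6 of these without a call, all lower in mutants, were *Rab22a*, *Rab19*, *Rab7*, *Rab8a*, *Rab39* and *Rab1a*. DESeq2 called 16 of the 59, against 20.7% of its genes.

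**Figure D1:**
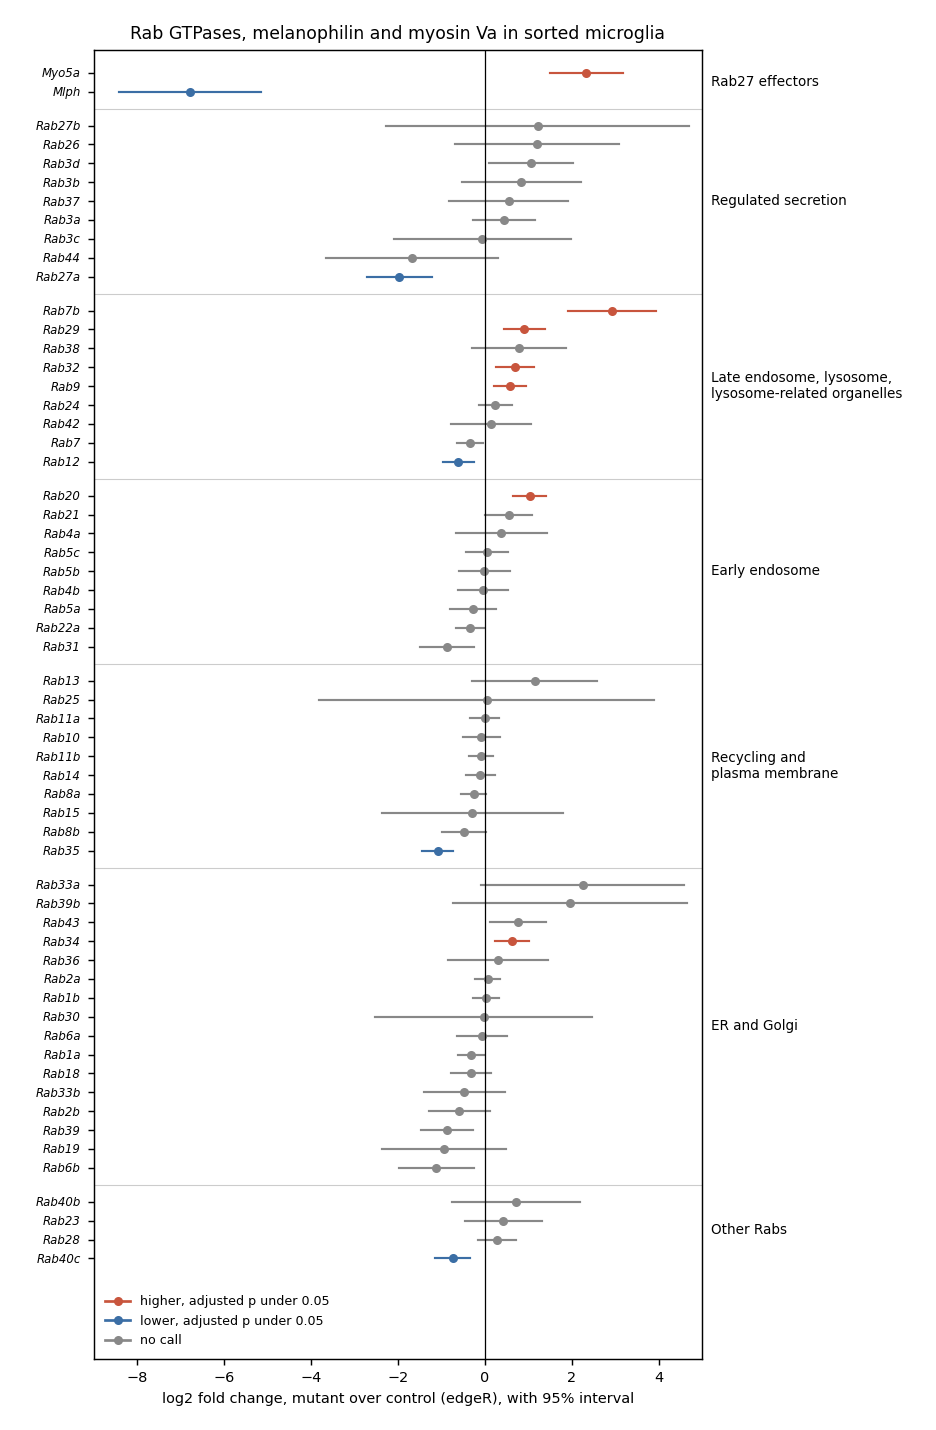
Log2 fold change of mutants over controls (x axis) for each of the 59 members (y axis), grouped by the compartment or process the protein serves, with edgeR's 95% interval as a line. *Mlph* at -6.78 and *Rab7b* at 2.93 mark the ends of the range, and 47 members in grey made no call.

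Of the 12 calls, 6 held in every alternative fit that tested the gene: those of *Mlph*, *Rab27a*, *Rab35*, *Rab20*, *Myo5a* and *Rab7b*. The other 6, of *Rab40c*, *Rab12*, *Rab29*, *Rab32*, *Rab34* and *Rab9*, were each lost in at least 1 of the 8 fits that left out 1 mouse. The number of members called was 6 without control 1, 7 without control 2, 7 without mutant 2 and 6 without mutant 4. Of all 20153 genes tested, these fits called 2115, 1572, 1687 and 1830, against 2485 in the main fit. Without control 1 and mutant 1, the pair richest in neuron markers, a choice made after seeing the data, 8 members were called. That fit called 1917 of all genes tested.

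**Figure D2:**
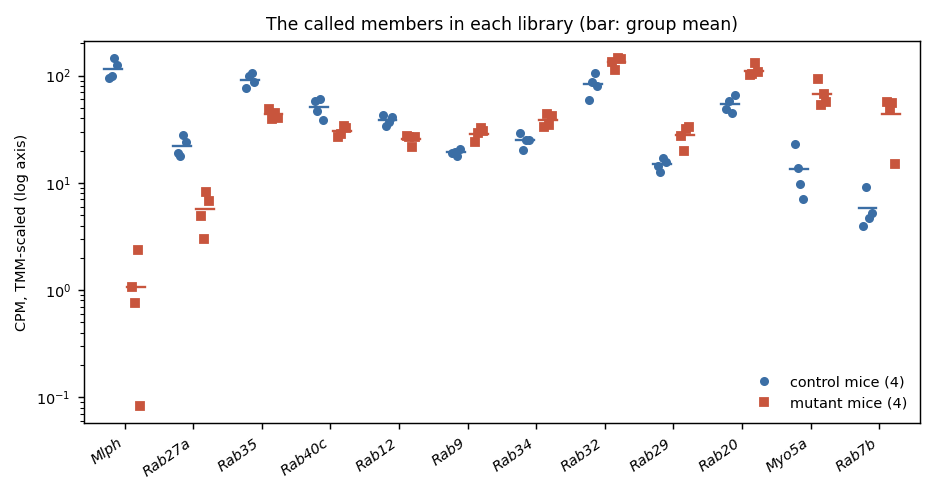
CPM on a log axis (y) of the 12 called members (x) in each of the 4 control and 4 mutant libraries, with bars at the group means. Control and mutant libraries do not overlap for any of the 12, and *Mlph* in mutant 4 lies lowest at 0.0828 CPM.

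The Rab27 machinery held the largest decrease. *Mlph* (ENSMUSG00000026303, chr1:90915085-90951142, plus strand) was at 94.6, 100.03, 146 and 125 CPM in controls 1 to 4. In mutants 1 to 4 it was at 1.06, 0.756, 2.34 and 0.0828 CPM, from 41, 35, 84 and 3 counts. Every mutant library therefore lay far below every control library, although none was at 0. The group means of 116 ± 23.7 and 1.06 ± 0.946 CPM (SD, n = 4) differed 110-fold, with a log2 fold change of -6.78 ± 0.72 (SE, edgeR adjusted p = 5.1e-04). *Rab17*, the next Rab gene along the same chromosome (chr1:90958133-90969661), had at most 4 counts in a library.

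*Rab27a* itself (ENSMUSG00000032202, chr9:73044854-73097629, plus strand) was at 18.9, 17.7, 28.2 and 24.2 CPM in controls and at 4.93, 2.98, 8.16 and 6.76 CPM in mutants. The highest mutant lay below the lowest control, and the means differed 3.90-fold (log2 fold change -1.96 ± 0.33, adjusted p = 0.00549). Its close paralog *Rab27b*, the form of many secretory and blood cells, was nearly absent, with 54 counts over the 4 controls and 143 over the 4 mutants. *Myo5a* (ENSMUSG00000034593, chr9:75071015-75223688, plus strand), the actin motor that melanophilin recruits, went the other way. It was at 23.0, 13.7, 9.71 and 7.05 CPM in controls and at 93.3, 53.4, 67.5 and 56.9 CPM in mutants, a log2 fold change of 2.34 ± 0.37 (adjusted p = 0.00394). Control 1, the highest control, lay below the lowest mutant. Control 1 and mutant 1, the highest of their groups for *Myo5a*, also held the highest neuron and oligodendrocyte marker sums. The part of RNA from these cells in *Myo5a* was not tested. *Rab27a* and *Myo5a* lie 1.97 Mb apart on chromosome 9 and moved in opposite directions.

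A further 8 proteins that bind Rab27 were listed, and 6 of them passed the count minimum. *Unc13d*, encoding Munc13-4, which primes granules for release, was lower in mutants, at 25.4, 22.1, 33.6 and 21.7 CPM in controls and 11.4, 10.1, 6.04 and 11.1 CPM in mutants (log2 fold change -1.41 ± 0.26, adjusted p = 0.00785). *Sytl3*, a synaptotagmin-like protein that links Rab27 to the plasma membrane, was at 1.37 to 5.16 CPM in controls and 5.46 to 9.82 CPM in mutants without passing the test (log2 fold change 1.58, 95% interval 0.52 to 2.65, adjusted p = 0.0597). *Myrip*, a melanophilin-related linker to myosin VIIa, was at 1.76 to 14.7 CPM in controls and 11.1 to 17.3 CPM in mutants (log2 fold change 0.55, 95% interval -0.72 to 1.82). *Sytl1*, *Sytl2* and *Sytl5* stayed below 6 CPM in every library and made no call.

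**Figure D3:**
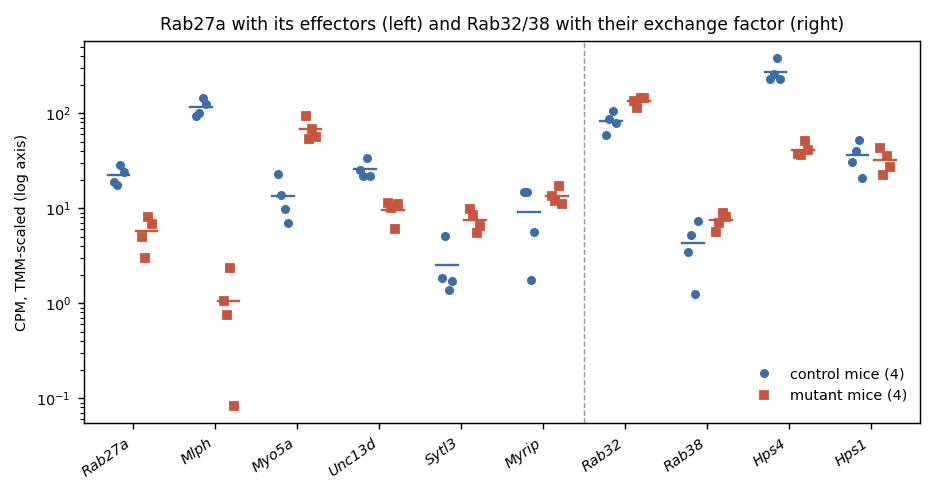
CPM on a log axis (y) in each library for *Rab27a* with its effectors, left of the dashed line, and for *Rab32* and *Rab38* with *Hps4* and *Hps1*, the subunits of their exchange factor, right of it, with bars at the group means. *Mlph*, *Rab27a*, *Unc13d* and *Hps4* are lower in all mutant libraries, and *Myo5a*, *Rab32* and *Sytl3*, the last without a call, are higher.

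The other 8 Rabs of regulated secretion made no call, so 11.1% of this group was called, near the 12.3% of all genes tested. *Rab3a*, which sits on synaptic vesicles in neurons, had the highest level per length in this group, at 15.6 ± 6.36 CPM per kb of exon in controls and 21.1 ± 6.501 in mutants. *Rab3d*, known from secretory granules, was at 5.48, 22.2, 8.11 and 10.1 CPM in controls and 29.4, 14.8, 28.6 and 23.8 CPM in mutants (log2 fold change 1.07, 95% interval 0.11 to 2.04, adjusted p = 0.137). Control 2 lay inside the mutant range, and without it the call was made (log2 fold change 1.61, adjusted p = 0.0244). Control 2 also held the highest neutrophil and monocyte marker sum, 1800 CPM. The other controls were at 515 to 1040 CPM and the mutants at 294 to 877 CPM. The part of these cells in *Rab3d* was not tested. *Rab44*, *Rab26*, *Rab37*, *Rab3b* and *Rab3c* had means under 6 CPM in both groups, with log2 fold changes from -1.67 to 1.204.

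Of 9 late endosome, lysosome and lysosome-related organelle Rabs, 5 were called, against 12.3% of all genes tested. Only the call of *Rab7b* remained in each of the fits without control 1, control 2, mutant 3 or mutant 4, and without control 1 and mutant 1 together. *Rab7b* (ENSMUSG00000052688, chr1:131688695-131715439, plus strand), a Rab of monocytes and macrophages that acts between endosomes and the Golgi and dampens Toll-like receptor signals, was at 3.96, 9.14, 4.73 and 5.27 CPM in controls and 56.7, 48.8, 55.3 and 15.1 CPM in mutants. Mutant 4 stood apart from the other mutants but above every control, and the log2 fold change was 2.93 ± 0.45 (adjusted p = 0.00337), or 7.61-fold between means. *Rab29* (chr1:131867224-131872887, plus strand), which recruits the kinase LRRK2 to the Golgi and stressed lysosomes, was at 14.4, 12.7, 17.1 and 15.5 CPM in controls and 27.6, 19.8, 31.7 and 33.3 CPM in mutants. Its log2 fold change was 0.92 ± 0.21 (adjusted p = 0.0219), and 4 of the 8 fits that left out a mouse, those without control 1, control 2, mutant 3 or mutant 4, lost the call with adjusted p-values up to 0.0718. *Rab7b* and *Rab29* lie 152 kb apart on chromosome 1, the closest pair among the 59 members, and both were higher.

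*Rab32*, which with *Rab38* builds lysosome-related organelles, was at 58.9, 87.7, 106 and 79.7 CPM in controls and 135, 112, 145 and 143 CPM in mutants (log2 fold change 0.69 ± 0.19, adjusted p = 0.0494). *Rab38* was at 1.26 to 7.26 CPM in controls and 5.64 to 8.997 CPM in mutants, without a call (log2 fold change 0.79, 95% interval -0.29 to 1.87). The exchange factor for both, BLOC-3, is made of Hps1 and Hps4. *Hps4* (ENSMUSG00000042328, chr5:112343083-112378414, plus strand) was at 229, 262, 381 and 228 CPM in controls and 36.9, 36.1, 50.8 and 40.6 CPM in mutants, a log2 fold change of -2.74 ± 0.22 (adjusted p = 1.1e-04). All 4 mutants lay far below all controls. *Hps1* was at 20.7 to 52.4 CPM in controls and 22.3 to 43.6 CPM in mutants (log2 fold change -0.16, 95% interval -0.87 to 0.54). A GTPase that was higher and a subunit of its exchange factor that was lower thus occurred in the same libraries.

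*Rab9* on the X chromosome, which returns receptors from late endosomes to the Golgi, was at 18.9, 19.6, 17.9 and 20.7 CPM in controls and 23.9, 29.0, 32.4 and 30.2 CPM in mutants (log2 fold change 0.58 ± 0.16, adjusted p = 0.0446), and 6.20% of its 50-base words occur in the pseudogene *Rab9b-ps1*. *Rab12*, which sends transferrin receptor to lysosomes, was lower, at 43.3, 34.1, 37.0 and 41.5 CPM in controls and 27.5, 26.6, 21.8 and 26.5 CPM in mutants (log2 fold change -0.61 ± 0.15, adjusted p = 0.0350). The calls of *Rab32*, *Rab9* and *Rab12* were each lost in 7 of the 8 fits that left out a mouse, with adjusted p-values up to 0.106, 0.110 and 0.0877. The call was kept without control 3 for *Rab32* and without mutant 1 for *Rab9* and *Rab12*.

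*Rab7*, the general late endosome and lysosome Rab and the highest of this group per length, was at 188, 202, 196 and 174 CPM in controls and 162, 165, 148 and 131 CPM in mutants. The groups did not overlap, but the difference did not pass the test (log2 fold change -0.33, 95% interval -0.63 to -0.03, adjusted p = 0.141), and DESeq2 made the call. *Rab24* and *Rab42* made no call, and 62.4% of the exon bases of *Rab24* are shared with the antisense gene *Prelid1*, which these unstranded counts cannot tell apart. Summed over the 9 genes, the level was 359 to 410.5 CPM in controls and 426 to 474 CPM in mutants. The sum of the 10 recycling and plasma membrane Rabs went the other way. It was 1034 to 1095 CPM in controls and 830 to 986 CPM in mutants. Sums of the early endosome, regulated secretion, endoplasmic reticulum and Golgi, and remaining Rabs overlapped between mutants and controls.

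Among 9 early endosome Rabs, only *Rab20* was called, or 11.1%, near the 12.3% of all genes tested. *Rab20* (ENSMUSG00000031504, chr8:11453518-11478710, minus strand), which promotes phagosome maturation in macrophages, was at 48.8, 57.7, 45.3 and 65.5 CPM in controls and 103, 103, 132 and 108 CPM in mutants. All mutants lay above all controls, with a log2 fold change of 1.04 ± 0.17 (adjusted p = 0.00428), and 25.6% of its exon bases overlap the antisense gene *E230013L22Rik*. *Rab31*, of early endosomes and the Golgi, was at 144, 148, 172 and 115 CPM in controls and 126, 69.3, 72.4 and 50.1 CPM in mutants (log2 fold change -0.87, 95% interval -1.49 to -0.25, adjusted p = 0.0722). Mutant 1 was inside the control range, and without it *Rab31* was called (log2 fold change -1.18, adjusted p = 0.0105). DESeq2 and the fits with 10 counts in all 8 libraries, with the replicate block, and without control 1 and mutant 1 called *Rab31* too, with adjusted p-values from 0.0233 to 0.0487. *Rab21* was at 20.8, 21.01, 18.998 and 34.9 CPM in controls and 26.8, 33.4, 39.6 and 40.7 CPM in mutants, and was called only without control 4 (adjusted p = 0.0381, against 0.164 with it). The core early endosome Rabs *Rab5a*, *Rab5b* and *Rab5c* had log2 fold changes of -0.27, -0.01 and 0.05, with 95% intervals from -0.81 to 0.27, -0.60 to 0.59 and -0.43 to 0.53.

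Among 10 Rabs of recycling endosomes and the plasma membrane, only *Rab35* was called, or 10%, near the 12.3% of all genes tested. *Rab35* (ENSMUSG00000029518, chr5:115631908-115647736, plus strand), which returns cargo quickly to the cell surface and shapes actin at forming phagosomes, was at 77.0, 98.3, 106 and 87.8 CPM in controls. In mutants it was at 49.2, 39.4, 45.3 and 39.9 CPM, below every control (log2 fold change -1.08 ± 0.15, adjusted p = 0.00227). The abundant recycling Rabs did not show such a difference: *Rab11a* had a log2 fold change of -0.00 (95% interval -0.33 to 0.32), *Rab11b* -0.09 (-0.37 to 0.19), *Rab14* -0.10 (-0.44 to 0.23) and *Rab10* -0.08 (-0.51 to 0.34). *Rab8a*, of traffic to the plasma membrane, was at 126, 126, 134 and 126 CPM in controls and 102, 98.7, 106 and 123 CPM in mutants without a call (adjusted p = 0.230). *Rab13* lay between 0.783 and 11.9 CPM over all libraries and *Rab25* at 0.70 CPM or less.

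*Rab15*, a recycling Rab of neurons, varied more within groups than between them. It was at 68.8, 22.2, 6.66 and 3.68 CPM in controls 1 to 4 and at 47.2, 21.2, 6.41 and 8.34 CPM in mutants 1 to 4. The libraries with the highest neuron and oligodendrocyte marker sums, control 1 and mutant 1, also held the highest *Rab15*. The part of RNA from these cells in *Rab15* was not tested. *Rab3a*, at 54.7 and 66.0 CPM in the same libraries against 21.7 to 50.03 CPM in the others, and *Rab6b*, a Golgi Rab of neurons at 118 CPM in control 1 and 56.2 CPM in mutant 1, were highest of their groups there too. *Rab6b* was lower in mutants without passing the test (log2 fold change -1.11, 95% interval -1.97 to -0.26, adjusted p = 0.0897), and the call was made without mutant 1 (log2 fold change -1.47, adjusted p = 0.0330). DESeq2, the replicate block and the fit without control 1 and mutant 1 made the call for *Rab6b* as well, with adjusted p-values from 0.0129 to 0.0456.

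**Figure D4:**
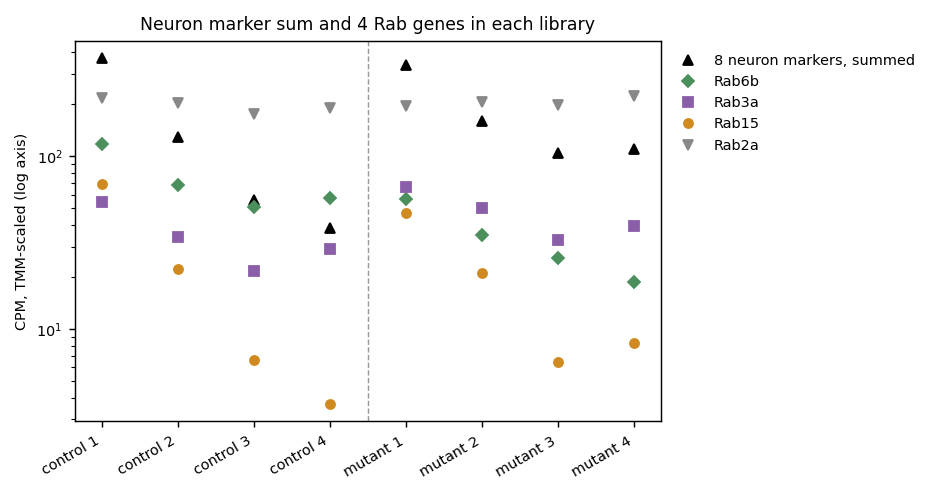
CPM on a log axis (y) of the summed 8 neuron markers and of *Rab6b*, *Rab3a*, *Rab15* and *Rab2a* in each library (x). The neuron sum and *Rab15* are highest in control 1 and mutant 1, whereas *Rab2a* stays between 176 and 222 CPM throughout.

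Of 16 Rabs of the endoplasmic reticulum and Golgi, only *Rab34* was called, or 6.25% against 12.3% of all genes tested. *Rab34*, a Golgi Rab that also serves macropinocytosis and lysosome position, was at 29.0, 20.2, 25.4 and 25.3 CPM in controls and 33.2, 44.2, 34.5 and 42.3 CPM in mutants (log2 fold change 0.63 ± 0.18, adjusted p = 0.0488). The call was lost in 7 of 8 fits that left out a mouse, all but the one without mutant 1, with adjusted p-values up to 0.135. *Rab39*, which takes part in phagosome acidification, was at 28.3, 29.2, 35.8 and 25.5 CPM in controls and 21.3, 15.8, 9.08 and 18.6 CPM in mutants. All mutants lay below all controls, but the difference did not pass the test (log2 fold change -0.87, 95% interval -1.47 to -0.28, adjusted p = 0.0632). DESeq2 and the fit without mutant 1 called it. Its X-linked paralog *Rab39b*, a neuronal Rab, was at 0.196 to 1.22 CPM in controls and 4.10, 4.73, 0 and 5.63 CPM in mutants, and was called only without mutant 3 (adjusted p = 0.0468).

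*Rab1a* and *Rab1b*, which carry cargo from the endoplasmic reticulum to the Golgi, and *Rab2a* had log2 fold changes of -0.31, 0.02 and 0.07, with 95% intervals from -0.61 to -0.01, -0.28 to 0.32 and -0.22 to 0.35. The log2 fold changes of the 15 uncalled members of this group ran from -1.11 to 2.25, the last from *Rab33a*, which was at 3.20 CPM or less in every library. Among the 4 remaining Rabs, *Rab40c*, a subunit of ubiquitin ligases, was lower, at 57.8, 46.4, 60.1 and 38.7 CPM in controls and 26.6, 28.7, 33.8 and 32.5 CPM in mutants (log2 fold change -0.74 ± 0.18, adjusted p = 0.0304). That call was kept only without control 4 or mutant 3 and was lost in the other 6 fits that left out a mouse, with adjusted p-values up to 0.0829. *Rab28*, *Rab23* and *Rab40b* made no call, with 95% intervals of the log2 fold change from -0.17 to 0.73, -0.46 to 1.31 and -0.75 to 2.20.

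Levels were ordered per length, as CPM per kb of annotated exon. In controls *Rab2a* came first at 91.9 ± 7.95, followed by *Rab1b* at 78.5 ± 6.91, *Rab7* at 72.9 ± 4.70, *Rab1a* at 59.4 ± 4.63 and *Rab11a* at 54.0 ± 7.70 CPM per kb (SD, n = 4). The mean ± SD ranges of neighbours in this order overlapped, except that *Rab7* stood above *Rab1a*. In mutants *Rab2a* was again first, at 96.2 ± 5.42 CPM per kb. *Rab20* moved from the sixth to the second place, at 39.0 ± 6.55 and 80.0 ± 10.05 CPM per kb, and *Rab32* from the ninth to the fifth. In mutants the mean ± SD range of *Rab20* overlapped that of the third-placed *Rab1b*, at 79.5 ± 6.43 CPM per kb, and that of *Rab32* overlapped that of *Rab7*. *Mlph* went from place 14 of 59 to place 55, *Rab35* from place 10 to 18, and *Rab7b* from place 46 to 26. The summed level of all 57 Rabs was 2763 to 3153 CPM in controls and 2607 to 3001 CPM in mutants, ranges that overlapped.

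Paralogous Rabs, which need not serve the same compartment, were set against each other as the log2 ratio of their counts within a library. Of 16 pairs, 3 had ratios that did not overlap between groups. Among single genes tested, the groups did not overlap for 22.1%, and no such share was computed for pairs of genes. *Rab7* over *Rab7b* was 4.47 to 5.57 in controls and 1.42 to 3.12 in mutants, so that *Rab7* made up 97.1% of the pair's counts in controls and 78.4% in mutants. *Rab6a* over *Rab6b* was -0.66 to -0.25 in controls and 0.24 to 1.10 in mutants, and *Rab6a* rested on exons of which 18.99% of bases overlap antisense *Mrpl48*. *Rab2a* over *Rab2b* was 4.51 to 4.61 in controls and 4.64 to 5.99 in mutants, with 64.0% of the exon bases of *Rab2b* shared with antisense genes. Ratios of the other 13 pairs overlapped, among them *Rab11a* over *Rab11b* (-0.10 to 0.44 in controls, 0.13 to 0.25 in mutants) and *Rab32* over *Rab38* (3.45 to 6.38 and 4.01 to 4.58).

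**Figure D5:**
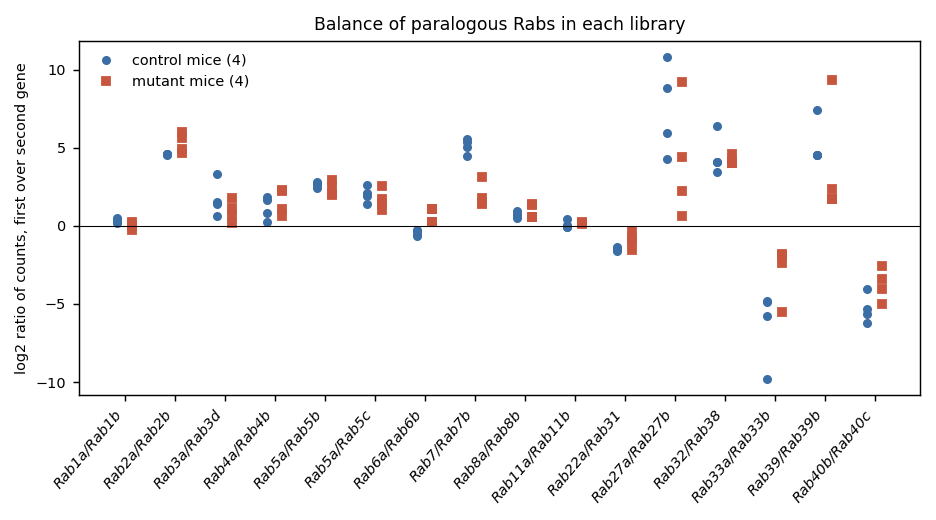
Log2 ratio of the counts of the first over the second gene of each paralog pair (y axis, 0.5 added to each count), with a point for each of the 4 control and 4 mutant libraries. The ratio of *Rab7* to *Rab7b* falls from 4.47 or more in controls to 3.12 or less in mutants, while most pairs overlap.

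The genes that switch Rabs on and off and that read them out were taken as lists of their own. Of 121 such genes tested, 22 were called, or 18.2% against 12.3% of all genes tested. Of the 22, 5 were higher and 17 lower in mutants, where 4.36% of all genes were called higher and 7.97% lower. The median log2 fold change of the 121 was -0.27 against 0.01 over all genes. The number called fell to 14 without control 2, 10 without control 3 and 13 without mutant 2. Calls over all genes tested fell from 2485 to 1572, 1567 and 1687 in these fits. The calls of *Hps4*, *Rab3il1*, *Rin2*, *Rin3*, *Dennd2d*, *Rilpl1*, *Unc13d*, *Sgsm3*, *Tbc1d4* and *Tbc1d17* held in all 8 fits that left out a mouse, and the other 12 were lost in 2 to 7 of them. Of 39 GAPs, 2 were higher and 8 lower, or 25.6% called against 12.3% of all genes tested. The higher ones were *Tbc1d4*, known for holding back glucose transporter vesicles (log2 fold change 1.79 ± 0.31, adjusted p = 0.00606), and *Tbc1d12* (0.79 ± 0.20, adjusted p = 0.0350, kept only without control 4 or mutant 3). The largest decreases were those of *Tbc1d16* (-1.44 ± 0.33, adjusted p = 0.0235, lost without control 3, control 4, mutant 2 or mutant 3) and *Sgsm3* (-1.30 ± 0.27, adjusted p = 0.0156). *Tbc1d10a*, a GAP that acts on Rab27a and Rab35, was also among the lower genes, at 83.3 to 163 CPM in controls and 53.4 to 78.0 CPM in mutants (adjusted p = 0.0415, kept only without control 1), as were *Tbc1d17*, *Tbc1d31*, *Tbc1d14*, *Tbc1d5* and *Tbc1d22a*.

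Of 34 GEFs tested, 1 was higher and 4 were lower, or 14.7% called, near the 12.3% of all genes tested. Besides *Hps4*, the lower ones were *Rab3il1*, an exchange factor for Rab3 and Rab8 (599 to 1047 CPM in controls, 215 to 281 CPM in mutants, log2 fold change -1.69 ± 0.20, adjusted p = 8.0e-04), *Rin2* and *Rin3*. The last pair activate Rab5 proteins, and their log2 fold changes were -1.30 ± 0.23 (adjusted p = 0.00731) and -1.16 ± 0.23 (adjusted p = 0.0125). *Dennd2d*, of the DENN family of exchange factors, was higher, at 0.543 to 3.07 CPM in controls and 7.22 to 12.03 CPM in mutants (log2 fold change 2.63 ± 0.53, adjusted p = 0.0128). *Dennd1a*, *Dennd1b* and *Dennd1c*, exchange factors for Rab35, made no call, with log2 fold changes of 0.08, 0.24 and -0.57.

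Of 35 endosomal and recycling effectors tested, 2 were higher and 4 lower, or 17.1% called against 12.3% of all genes tested. *Rilpl1*, of the RILP-like family, was at 86.0, 87.1, 127 and 121 CPM in controls and 26.1, 28.8, 20.9 and 21.1 CPM in mutants (log2 fold change -2.12 ± 0.20, adjusted p = 2.6e-04). *Rbsn*, encoding the Rab4 and Rab5 effector rabenosyn-5, was lower by the test too (-1.26 ± 0.32, adjusted p = 0.0357, kept only without mutant 1 or mutant 3), whereas *Eea1*, the tether that Rab5 recruits to early endosomes, was higher (1.02 ± 0.23, adjusted p = 0.0225, lost without control 1 or control 3). *Ocrl*, an X-linked inositol phosphatase that binds several Rabs, was higher (1.22 ± 0.34, adjusted p = 0.0475, kept only without control 2 or mutant 4), although its lowest mutant value lay below the highest control, and *Lrrk1* and *Rab11fip5* were lower. *Lrrk2*, the kinase that Rab29 recruits, was at 3.64 to 12.7 CPM in controls and 3.29 to 13.9 CPM in mutants (log2 fold change -0.14, 95% interval -1.26 to 0.98). None of the 7 genes of Rab prenylation, escort and GDP dissociation inhibition was called by edgeR. At an unadjusted p-value under 0.05 there was 1, *Gdi2*, which extracts GDP-bound Rabs from membranes (log2 fold change -0.45, 95% interval -0.84 to -0.06).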

How the data were processed

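RNA of sorted microglia from 4 mutant and 4 control mice, 1 library each, was analysed. The authors deposited raw, unnormalized counts per gene, made with Rsubread (mm10) and featureCounts as the Methods state. The submitters' processing notes name DESeq2 1.28. The Methods describe polyA-selected, paired-end libraries and the labels Nextera XT, single-end ones, both unstranded, so reads of overlapping antisense genes cannot be told apart. Since the Methods cite a different deposit for the *Smad2/3* mutants, these libraries were matched to that experiment by genotype and cell type. A second deposited table, of the submitters' own comparison (fold changes, standard errors, statistics and p-values), was not used.

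Genes counted 10 or more times in 4 or more libraries were tested with edgeR 4.0.16 in R 4.3.3 (TMM, glmQLFit, glmQLFTest, no block, Benjamini-Hochberg adjustment over all genes tested, call at an adjusted p under 0.05). The standard error is the size of the log2 fold change divided by the square root of F, and 95% intervals use the t distribution with edgeR's total degrees of freedom. P-values measure the spread between these mice, with a biological coefficient of variation of 0.542. Libraries of a group differed by more than sampling noise, with a chi-square per gene of at least 80.2. Level per length is CPM per kb of merged exons in GENCODE M21, to which 55480 of 55573 identifiers matched. Promoter windows are those of RefSeq on GRCm38.p6. Alternatives were DESeq2 1.42.0 on all listed genes, RLE factors, library totals, no filter, a block for the replicate number, 10 counts in each of the 8 libraries, autosomal genes only, and each library left out in turn. Fits were first tested on simulated data. Python 3.11.15, pandas 2.3.3, numpy 2.4.6 and matplotlib 3.10.9 were used for tables and plots.

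The members and gene lists were chosen with earlier results of these data known. The genes named are every called member, the highest member per length of each group, members whose call changes under DESeq2 or when a library is left out, paralog pairs whose ratios do not overlap, uncalled members of groups of at most 5, up to 4 called genes per list of regulators, the targeted and sex-linked genes, and the markers. Other members and regulators named with values were chosen after their values were seen.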

Additional observations from a re-analysis of the deposited data

Results flagged for a closer look

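Within the groups of 4 libraries, 3 values lay far from the rest by Dixon's criterion at the 95% level. They came from 56 groups of member values examined, where chance flags about 1 in 20. These groups covered only part of the 59 members, so the list is not complete. *Rab8a* and *Rab14*, for example, were not examined. *Rab21* in control 4 was at 34.9 CPM, against 18.998 to 21.01 CPM in the other controls. *Rab40b* in control 1 was at 3.46 CPM, against 0.753 to 1.17 CPM in the others. *Rab39b* in control 3 was at 0.196 CPM, against 1.10 to 1.22 CPM in the others.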

How the results depend on the processing

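The calls of *Mlph*, *Rab27a*, *Rab35*, *Rab20*, *Myo5a* and *Rab7b* kept their direction and side of the threshold in every alternative that tested them, and the filter of 10 counts in all 8 libraries left *Mlph* untested. DESeq2 called 16 members, 9 of them lower, and 4751 genes in all against 2485 with edgeR, which fell to 1572 without control 2 and 1567 without control 3. Without a filter 4 members were called higher and 3 regulators and effectors higher, and *Smad3* (-1.35, adjusted p = 0.0510) lost its call. Without control 1 and mutant 1, chosen after seeing the data, 3 members and 2 regulators and effectors were called higher, and *Smad3* (-1.32, adjusted p = 0.0986) lost its call. Over all genes, 665 of 33547 were called higher without a filter and 684 of 20153 without control 1 and mutant 1. Leaving out each mouse gave 6 to 13 members called (3 to 6 higher, 3 to 7 lower), 10 to 21 regulators and effectors (2 to 5 higher, 8 to 18 lower), a median member log2 fold change of -0.0051 to 0.15, and *Smad3* at -1.79 to -1.11. These fits called 1567 to 2499 of all 20153 genes tested. The cause of these changes was not tested, and the fits that left out mice also had fewer samples. With library totals in place of TMM, the median log2 fold change of all genes was 0.13, against 0.01 in the main fit. That fit called 11 members and 2305 of all 20153 genes tested. Same-numbered libraries deviated together with correlations of 0.17, 0.02, 0.14 and 0.11, and libraries 1, 3 and 4 but not 2 correlated best with their own number, and since not every pair passed 0.1 the numbers were not taken to pair the mice. With the replicate block, 9 members were called (4 higher, 5 lower), with *Rab31* and *Rab6b* gained and *Rab40c*, *Rab12*, *Rab9*, *Rab34* and *Rab32* lost (adjusted p from 0.0568 to 0.0974), and 15 regulators and effectors (3 higher). The block fit called 2383 of all 20153 genes tested. *Rab15*, -0.29 without a call, turned to 0.11 with the replicate block, 0.94 without control 1, 0.01 without mutant 3 and 0.17 without control 1 and mutant 1, and over the fits that left out a mouse it ran from -1.08 to 0.94. Members near 1 CPM had wide intervals and varied between mice, as *Rab30* did with 140, 42, 39 and 0 counts in controls, and the part of depth in this was not tested.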

Other observations

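Beside the members, 6 Rab-named rows that do not code for protein were listed. The antisense RNA *Rab10os* held 1048 to 1339 counts in controls and 822 to 1262 counts in mutants, and the processed pseudogene *Rab11b-ps2* held 2147 to 2509 counts in controls and 1980 to 2521 counts in mutants. *Rab7-ps1* held 748 to 984 counts in controls and 562 to 942 counts in mutants, and 12.7% of the 50-base words of *Rab7* occur in transcripts of other genes, this pseudogene among them. *Rab9b-ps1* held 43 to 67 counts in controls and 87 to 118 counts in mutants. The protein-coding *Rab9b* had 54 counts in control 1, 8 in control 3 and none in the other libraries.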
